A study of Mus musculus with 6 samples.

Results

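Chaperones are proteins that help other proteins fold, and the ones described here work in the endoplasmic reticulum (ER), the cytosol and the mitochondria. The list holds 37 genes: 27 of the ER (its chaperones, disulfide isomerases, stress sensors and degradation machinery) and 10 of the cytosol or mitochondria (heat shock proteins and their regulator). A probe set of the array was taken where the platform annotation names exactly 1 gene and that gene is on the list, and each gene is represented by its brightest probe set, judged by the average of the 6 arrays. In this way 35 of the 37 genes were found, among 18194 genes named on the array, on 89 probe sets, of which 75 were bright enough to be tested (a log2 value above 4 on at least 3 arrays). All 27 ER genes and 8 of the 10 others were found, each with a tested probe set, and Hsp90ab1 and Hsf1 are not analysed here.

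RNA came from the jejunum, a fat-absorbing stretch of small bowel, of 6 male mice on a C57BL/6 background, each hybridised to 1 Affymetrix array. The 3 wild type mice carry the numbers 1, 3 and 4, and the 3 mice lacking both TIS7 (Ifrd1) and SKMc15 (Ifrd2), here called double knockout, carry the numbers 1, 2 and 3. All 6 were between 7 and 10 weeks old, were housed singly and ate a synthetic diet with 42% of its energy as milk fat and with 0.2% as cholesterol. The tissue protocol gives 3 weeks of this diet, while the growth protocol gives a span of 3 to 8 weeks; no group on another diet was measured. The labels name no Cre or promoter and do not say which exons were removed or whether the groups were littermates. The title of the series puts the question of how the 2 genes act in intestinal lipid absorption and obesity.

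When unfolded proteins build up in the ER, a set of membrane sensors (Ern1, its epithelial relative Ern2, Atf6 and Eif2ak3) signals to the nucleus. Atf6 and the spliced form of Xbp1 raise chaperones, folding enzymes and degradation factors, while Atf4 raises amino acid genes and, under lasting stress, Ddit3 and Trib3. Heat and other insults in the cytosol act through Hsf1 on the HSP70, HSP90 and HSP40 families and on the mitochondrial chaperonin. In the gut, the cells that secrete most protein (goblet, Paneth and plasma cells) depend on the ER branch, and enterocytes use ER chaperones to build lipoproteins.

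The ER stress and heat shock programmes are read from short DNA elements near gene starts, and these letters are shown because on this list they were found in different genes. RefSeq promoters (build GRCm38.p6, 250 bases before to 50 after each annotated start) were given for 28 of the 35 genes. The ER stress element was searched as CCAAT, 9 bases of any kind and CCACG, on both strands. It occurred in 9 of the 22 ER genes with an entry and in 0 of the 6 others, against 0.137% of all 27025 genes given (0.119% of their 32851 promoters). Each line below runs 5′ to 3′ on the gene's own strand with 15 bases on either side, and capitals mark the element; in Creld2, Calr and Derl3 it reads on the opposite strand.

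Creld2: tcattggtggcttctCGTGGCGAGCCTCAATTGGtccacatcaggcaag
Pdia6: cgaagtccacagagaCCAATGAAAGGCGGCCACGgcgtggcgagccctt
Hspa5: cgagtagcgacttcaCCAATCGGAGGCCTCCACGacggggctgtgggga
Calr: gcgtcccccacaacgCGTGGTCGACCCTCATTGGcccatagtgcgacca
Canx: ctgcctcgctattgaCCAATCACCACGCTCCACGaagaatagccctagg
Dnajc3: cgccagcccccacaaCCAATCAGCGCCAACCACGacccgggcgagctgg
Syvn1: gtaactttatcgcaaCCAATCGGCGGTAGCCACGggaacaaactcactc
Derl3: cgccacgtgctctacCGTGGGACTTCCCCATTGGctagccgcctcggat

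These windows lie at chr15:88819505-88819553 on the plus strand for Creld2, chr12:17266476-17266524 on the plus strand for Pdia6, chr2:34772010-34772058 on the plus strand for Hspa5 and chr8:84847060-84847108 on the minus strand for Calr. Those of the others lie at chr11:50325785-50325833 on the minus strand for Canx, chr14:118937812-118937860 on the plus strand for Dnajc3, chr19:6046517-6046565 on the plus strand for Syvn1 and chr10:75893227-75893275 on the plus strand for Derl3. The element began 126 bases before the annotated start in Creld2, 98 in Pdia6 and 65 in Hspa5. Hsp90b1, the ninth gene, held it at 2 places, beginning 212 and 107 bases before its start. The unfolded protein response element, TGACGTGG, was in none of the 28 genes' windows and in 0.714% of all genes given (0.676% of all promoters). No match says only that these letters are not in this window.

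Heat shock elements were searched as 3 alternating units of GAA and TTC, each 2 bases apart, on both strands. Of the 28 genes with an entry, Hspd1, Hspe1 and Hsph1 held one, against 0.662% of all genes given (0.603% of all promoters). In Hsph1 it lay after the annotated start. Hspd1 and Hspe1 are neighbours read in opposite directions, and 1 stretch of 48 bases with 2 overlapping matches serves as the window of both. It lies at chr1:55088044-55088091, printed here on the plus strand with the matches in capitals.

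Hspe1 (Hspd1 on the other strand): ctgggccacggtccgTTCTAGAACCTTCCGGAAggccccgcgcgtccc

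The core of the amino acid response element, TGATG, 1 base and AA, occurred in Trib3 and Herpud1 and in 4.51% of all genes given (3.97% of all promoters). Of the 28 genes with an entry, 0 held more than 1 of the 4 kinds of element. A match is a description of letters, not of a bound site.

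The targeted genes checked the labels. Ifrd1 read 10.00, 9.84 and 9.91 (log2, wild type mice 1, 3 and 4) against 6.27, 4.80 and 4.85 (double knockout mice 1, 2 and 3), and Ifrd2 was at least 20.8-fold lower, with all 3 double knockout values under the detection minimum of 4 used here. Array medians lay between 2.87 and 2.90. The difference between 3′ and 5′ probe sets of the Actb and Gapdh control transcripts, a measure of RNA integrity, lay between 0.35 and 0.49 in wild type and between 0.41 and 0.61 in double knockout arrays, so it was on the whole larger in the knockout group. Over all arrays, 805 of 18013 tested probe sets (4.47%) passed a limma adjusted p of 0.05, the threshold used throughout. Values below are log2 levels, differences are double knockout minus wild type on that scale with limma's standard error (n = 3 mice per group), and mice are given in the order of their numbers above. In all of them, in tissue RNA fewer cells of a type and less RNA per cell cannot be told apart.

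Of the 27 ER genes, 1 rose, 0 fell and 26 did not pass. The gene that rose is Creld2, which encodes an ER protein with disulfide isomerase activity that is secreted under stress. Across all named genes with 1 probe set each, 4.79% passed, so 1 of 35 members is no more than the background share. The median difference of the ER genes was 0.14, against 0.05 for all 9674 tested genes, and 19 of the 27 differences were positive, against 58.1% of all named genes. With the 3′ to 5′ difference as a covariate the ER median was 0.065. All 3 double knockout values lay above all 3 wild type values for 8 ER genes and below them for 1. For all named genes these shares were 22.5% and 14.2%.

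Creld2 read 8.51, 8.73 and 8.77 in wild type and 9.28, 9.21 and 9.32 in double knockout jejunum. The groups were well apart and the 3 double knockout mice lay close together. The difference was 0.60 ± 0.10, a 1.51-fold rise (95% interval 0.36 to 0.84 on the log2 scale, limma adjusted p = 0.0313). The call rests on all 6 arrays: without any 1 of them the difference stayed between 0.52 and 0.65, but the limma adjusted p lay between 0.0545 and 0.104. With the 3′ to 5′ difference as a covariate it was 0.52 ± 0.13 (limma adjusted p = 0.199), and with the mouse number as a block 0.68 ± 0.12 (limma adjusted p = 0.157). The blocked difference rests only on mice 1 and 3 of each group, the numbers found in both.

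**Figure D1:**
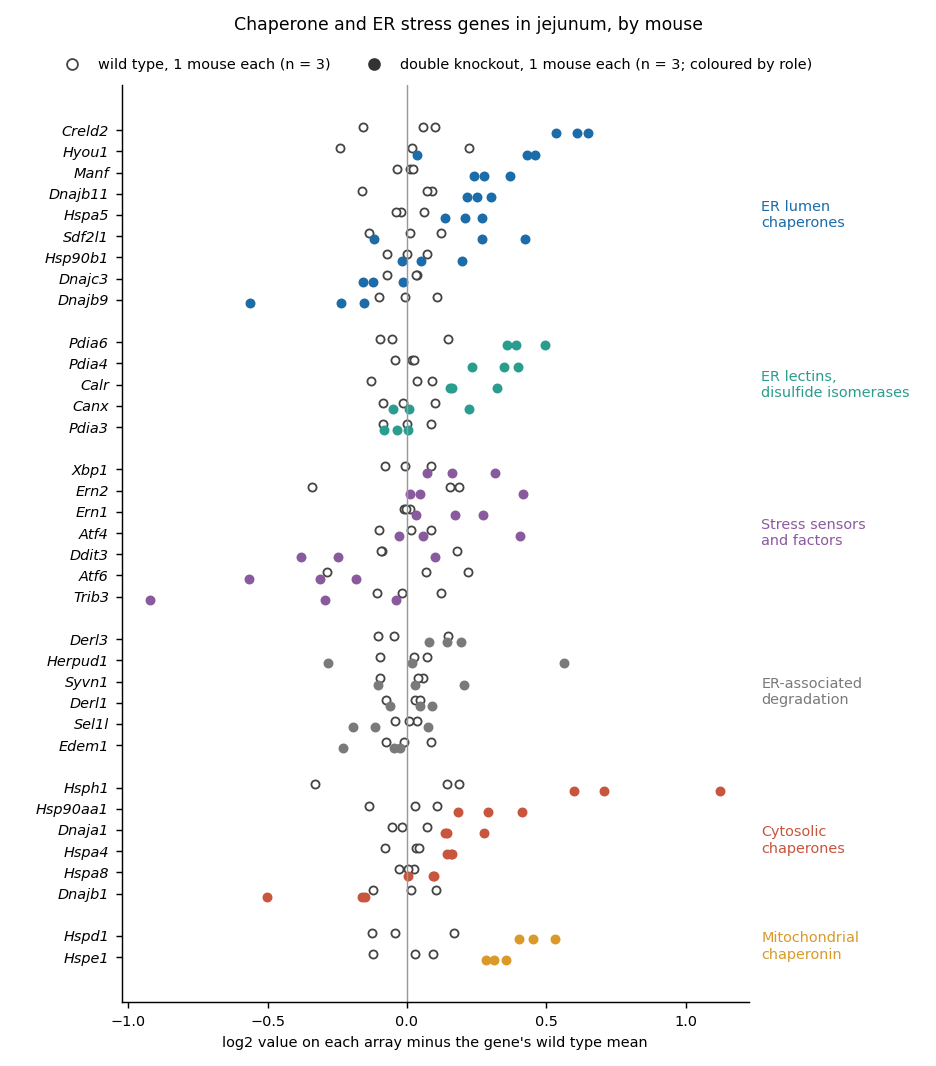
Each row is a gene and each point 1 mouse: the log2 value on its array minus that gene's wild type mean, with wild type open and double knockout filled and coloured by role (n = 3 per group). Creld2, Pdia6, Hsph1 and Hspd1 show double knockout mice clear of the wild type mice, Dnajb9 and Dnajb1 lie below them, and the degradation genes overlap.

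The main ER chaperone, Hspa5 (BiP), is the HSP70 of the ER and holds the stress sensors inactive. It read 12.29, 12.37 and 12.27 in wild type and 12.51, 12.44 and 12.57 in double knockout. The groups did not overlap, but the difference of 0.20 ± 0.08 did not pass (limma adjusted p = 0.171). Manf, a secreted ER stress protein, read 10.28, 10.23 and 10.29 against 10.55, 10.51 and 10.64, and Dnajb11, an HSP40 partner of Hspa5, 9.49, 9.74 and 9.72 against 9.90, 9.86 and 9.95. Neither pair of groups overlapped. The differences were 0.30 ± 0.08 and 0.26 ± 0.10 (limma adjusted p = 0.0816 and 0.160), and neither passed.

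Other lumenal chaperones did not follow one direction. Dnajb9, another HSP40 partner of Hspa5 that restrains Ern1, read 10.58, 10.49 and 10.70 in wild type and 10.43, 10.35 and 10.03 in double knockout. Every double knockout value lay below every wild type value, by -0.32 ± 0.13, without passing (limma adjusted p = 0.176). The nucleotide exchange factor Hyou1 (0.31 ± 0.16), the HSP40 partner Sdf2l1 (0.19 ± 0.16), the ER HSP90 Hsp90b1 (0.08 ± 0.09) and Dnajc3, an HSP40 known as an inhibitor of the kinase Eif2ak3 (-0.10 ± 0.08), had groups that overlapped. Their limma adjusted p-values lay between 0.275 and 0.622.

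Among the glycoprotein chaperones and disulfide isomerases, 0 of 5 passed, 3 had double knockout values all above wild type and 0 all below. The shares over all named genes were 4.79%, 22.5% and 14.2%. Pdia6, a disulfide isomerase that acts with Hspa5, read 9.28, 9.53 and 9.33 in wild type against 9.88, 9.74 and 9.77 in double knockout. Its relative Pdia4 read 8.36, 8.42 and 8.43 against 8.75, 8.64 and 8.80. Both were higher in every double knockout mouse than in any wild type mouse. Pdia6 differed by 0.42 ± 0.10 and Pdia4 by 0.33 ± 0.08 (limma adjusted p = 0.0635 and 0.0738), just short of the threshold. Both passed in 2 of 16 alternative analyses, with a stricter filter on dim probe sets and with a variance trend. Over all 16 the limma adjusted p lay between 0.0279 and 0.310 for Pdia6 and between 0.0458 and 0.334 for Pdia4.

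Calr, the soluble lectin chaperone that binds calcium, read 11.89, 12.11 and 12.06 against 12.34, 12.17 and 12.18, a difference of 0.21 ± 0.10 that did not pass (limma adjusted p = 0.220). The groups lay apart by a narrow margin. Its membrane-bound partner Canx differed by 0.06 ± 0.11 and Pdia3, the isomerase that works with both on glycoproteins, by -0.04 ± 0.08, with overlapping groups. Their 95% intervals on these probe sets were -0.19 to 0.31 and -0.24 to 0.16. Dimmer tested probe sets of Canx differed by -0.17 (95% interval -0.50 to 0.17) and 0.27 (-0.24 to 0.78), also with overlapping groups.

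**Figure D2:**
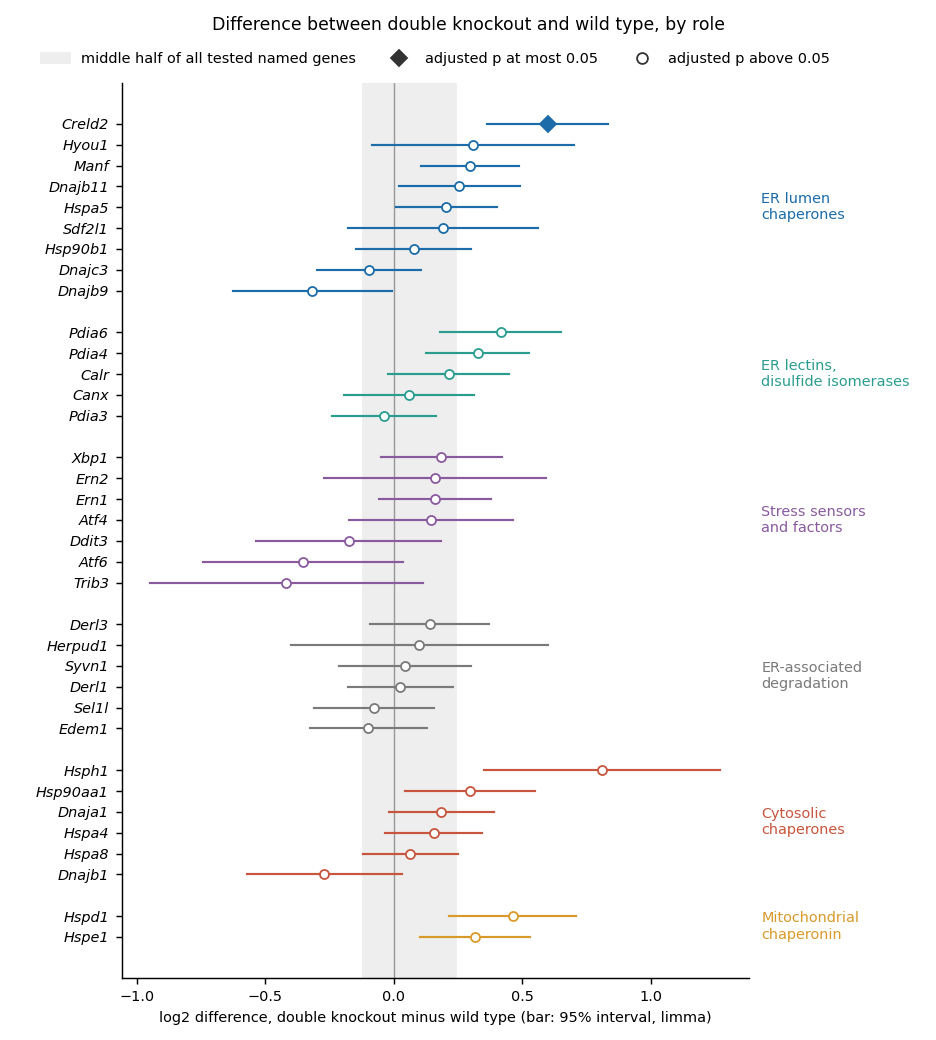
Each row is a gene: the point is the log2 difference, double knockout minus wild type, and the bar its 95% interval from limma (n = 3 per group), coloured by role; the grey band is the interquartile range of all 9674 tested named genes, -0.12 to 0.24. Creld2 is the filled diamond that passed, while the sensors and degradation genes have intervals that span 0.

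The sensors and transcription factors of the response showed no call: 0 of 7 passed, with 4 differences positive and 3 negative and a median of 0.15. Over all named genes 4.79% passed, 58.1% of differences were positive and the median was 0.05. Ern1, the kinase and RNase that splices Xbp1, read 7.47, 7.45 and 7.46 in wild type and 7.73, 7.63 and 7.49 in double knockout. The wild type mice were nearly equal and double knockout mouse 3 lay next to them (0.16 ± 0.09, limma adjusted p = 0.307). A dimmer tested probe set of Ern1 went the other way, at -0.20 ± 0.12, and did not pass. Ern2, its relative in mucus-secreting epithelium, read 7.05, 7.02 and 6.53 against 6.88, 7.28 and 6.91. These groups overlapped (0.16 ± 0.18, limma adjusted p = 0.601).

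Atf6, the membrane-bound transcription factor, read 7.70, 8.21 and 8.06 against 7.81, 7.68 and 7.42. Wild type mouse 1 fell among the double knockout mice, and the difference was -0.35 ± 0.16 (limma adjusted p = 0.216). A dimmer tested probe set of Atf6 stood at 0.05 ± 0.09 and did not pass. Xbp1 read 11.91, 12.00 and 11.84 against 12.23, 11.99 and 12.08, a difference of 0.18 ± 0.10 with overlapping groups (limma adjusted p = 0.276). Its spliced and unspliced forms were not told apart here.

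In the branch that leads from Atf4 to Ddit3 and Trib3, 0 of 3 genes passed, against 4.79% of all named genes. Atf4 read 10.42, 10.61 and 10.54 in wild type and 10.93, 10.49 and 10.58 in double knockout, where mouse 1 alone stood above the wild type range. Ddit3, the transcription factor CHOP of stress-induced cell death, read 8.18, 8.17 and 8.45 against 8.02, 8.37 and 7.88. The groups of both genes overlapped. Trib3, a pseudokinase that is a target of Atf4 and Ddit3, read 7.08, 7.17 and 7.31 against 6.27, 6.89 and 7.15, with double knockout mouse 1 the lowest. The differences were 0.15 ± 0.13, -0.18 ± 0.15 and -0.42 ± 0.22 (limma adjusted p = 0.516, 0.485 and 0.273). The 95% interval of Trib3, -0.95 to 0.11, and that of Ddit3, -0.53 to 0.18, end at rises of 0.11 and 0.18.

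Genes of ER-associated degradation, which send misfolded proteins back to the cytosol, had the median difference nearest to 0 of the roles. Of 6 genes, 0 passed and 0 had groups that did not overlap on the brightest probe set, and the median difference was 0.03. Over all named genes 4.79% passed, 22.5% had groups all above and 14.2% all below wild type. Dimmer probe sets did have separated groups, below wild type for Sel1l and above it for Syvn1, without passing. The differences ran from -0.10 ± 0.10 for Edem1, a lectin that picks out misfolded glycoproteins, to 0.14 ± 0.10 for Derl3. Sel1l, the adaptor of the ubiquitin ligase Syvn1, and Syvn1 itself stood at -0.08 ± 0.10 and 0.04 ± 0.11, and Derl1, a membrane component of the exit channel, at 0.03 ± 0.09. Herpud1, a stress-induced scaffold of this ligase, varied most of these 6 genes among the double knockout mice. It read 10.45, 10.75 and 11.30 there against 10.64, 10.80 and 10.76 in wild type. Its difference of 0.10 ± 0.21 was smaller than its error.

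Differences of genes with and without the ER stress element in the promoter window overlapped widely. The 9 such ER genes had a median of 0.14 and ran from -0.10 (Dnajc3) to 0.60 (Creld2), with 8 positive. The other 13 ER genes in the promoter table had a median of 0.10 and ran from -0.42 (Trib3) to 0.33 (Pdia4), with 7 positive. Hsp90b1, which held the element at 2 places, differed by 0.08.

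Of the 8 cytosolic and mitochondrial genes, 0 rose and 0 fell by limma on their brightest probe sets. Their median difference was 0.24, 7 of 8 differences were positive, and 6 had double knockout values all above and 1 all below wild type. Over all named genes 4.79% passed, 58.1% of differences were positive, 22.5% had groups all above and 14.2% all below, and the median was 0.05. Hsph1 (HSP105), an exchange factor of cytosolic HSP70, had the largest difference of all 35 genes. It read 7.79, 8.30 and 8.26 in wild type and 8.82, 8.72 and 9.24 in double knockout, a difference of 0.81 ± 0.19 or 1.75-fold (limma adjusted p = 0.0639). Mouse 3 was the highest of the knockout group and wild type mouse 1 the lowest of its own. Without either of these mice the Hsph1 difference was 0.65. With the 3′ to 5′ difference as a covariate it was 0.55 ± 0.22 (limma adjusted p = 0.324), and Hsph1 passed in 2 of 16 alternative analyses. The second probe set of Hsph1, at 5.86, 6.36 and 6.26 against 6.45, 6.80 and 7.46, differed by 0.74 ± 0.27 and did not pass either (limma adjusted p = 0.144).

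Hsp90aa1, the inducible cytosolic HSP90, passed on 1 of its 3 tested probe sets. On that one, the dimmest of the 3, it read 9.90, 9.77 and 9.92 in wild type and 10.28, 10.32 and 10.27 in double knockout (0.43 ± 0.08, limma adjusted p = 0.0428). On its brightest probe set it read 10.94, 11.10 and 11.18 against 11.49, 11.26 and 11.36 (0.30 ± 0.11, limma adjusted p = 0.138), and on the remaining one the difference was 0.34 ± 0.13. The groups did not overlap on any of the 3, so the probe sets shared a direction while only 1 was called.

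Hspa8, the constitutive HSP70 of the cytosol, read on its brightest probe set 12.84, 12.79 and 12.82 against 12.91, 12.82 and 12.92, with groups that overlapped (0.06 ± 0.08). Its 3 other tested probe sets stood at 0.10, at 0.20 with every double knockout value above every wild type value, and at 0.66 ± 0.27 with overlapping groups, and none passed. Hspa4, an exchange factor related to Hsph1, read 10.09, 9.97 and 10.09 against 10.21, 10.21 and 10.19. Its groups were apart but its difference of 0.16 ± 0.08 did not pass. The limma adjusted p-values of the brightest probe sets were 0.625 for Hspa8 and 0.256 for Hspa4.

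The HSP40 partners of cytosolic HSP70 split. Dnaja1 read 11.12, 11.16 and 11.25 in wild type and 11.46, 11.32 and 11.32 in double knockout (0.19 ± 0.09), with every double knockout value higher. Dnajb1, a heat-inducible partner, read 9.22, 9.36 and 9.45 against 8.84, 9.18 and 9.19 (-0.27 ± 0.13), with every double knockout value lower. Both had a limma adjusted p of 0.221, so neither direction was called, and the second probe set of Dnajb1 differed by -0.39.

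The mitochondrial chaperonin is built of Hspd1 (HSP60) and its lid Hspe1 (HSP10), the pair with the shared promoter window printed above. Hspd1 read 11.44, 11.73 and 11.52 in wild type and 12.01, 11.97 and 12.09 in double knockout, a difference of 0.46 ± 0.10 or 1.38-fold. Hspe1 read 11.00, 11.21 and 11.15 against 11.44, 11.40 and 11.48, a difference of 0.32 ± 0.09. In both, every double knockout mouse was above every wild type mouse, but neither passed (limma adjusted p = 0.0572 and 0.0888). Hspd1 passed in 3 of 16 alternative analyses, with a limma adjusted p between 0.0164 and 0.289 over all of them, and Hspe1 in 1.

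**Figure D3:**
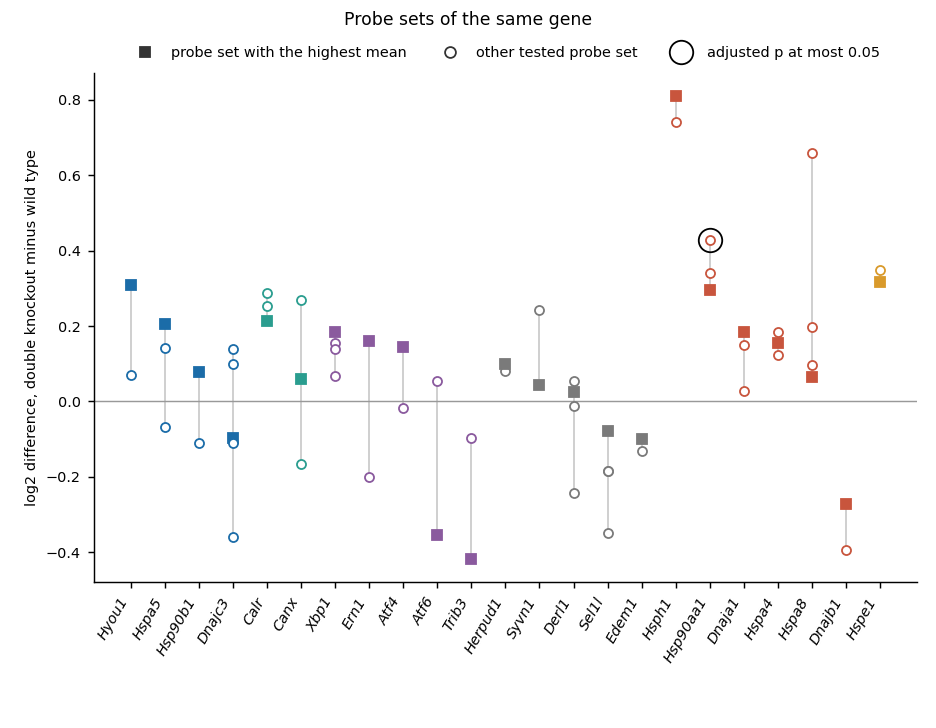
Each column is 1 of the 23 genes with over 1 tested probe set, and each point a probe set: its log2 difference, double knockout minus wild type, with the brightest as a filled square and a ring where the adjusted p was at most 0.05. Hsp90aa1 carries the only ring, Hsph1, Calr and Hspe1 have probe sets close together, and Dnajc3 and Hspa8 are spread widely.

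Probe sets of the same gene often differed. Of the 23 genes with over 1 tested probe set, 15 had all differences of 1 sign and 8 had both signs. Hspa5 stood at 0.20, 0.14 and -0.07 on its 3 probe sets, and Dnajc3 ran from -0.36 to 0.14 over 5. Of Sel1l's 4 tested probe sets, 3 had every double knockout value below every wild type value (-0.19, -0.18 and -0.35), but the brightest did not. Over all 75 tested probe sets of the members, 2 were called, 51 differences were positive, 27 had double knockout values all above and 6 all below wild type. Of all 18013 tested probe sets, 4.47% were called and 53.6% had positive differences. The shares with such separated groups were 19.5% and 14.8%. Probe set names ending in _s_at or _x_at mark probes that can match further transcripts, and this holds for the brightest probe sets of Hspa8, Hspe1, Xbp1, Canx, Hyou1, Syvn1 and Derl1.

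Single mice weighed on these medians. Set against each gene's wild type mean, the median over the 27 ER genes was 0.21 in double knockout mouse 1, 0.07 in mouse 2 and 0.05 in mouse 3, and -0.07, 0.04 and 0.03 in wild type mice 1, 3 and 4. Wild type mouse 1 was the lowest array of this set, with 8 of 27 genes above the wild type mean. For the 8 cytosolic and mitochondrial genes the medians were 0.30, 0.17 and 0.22 against -0.12, 0.02 and 0.06. Without wild type mouse 1 the median differences were 0.09 for the ER genes and 0.20 for the others.

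Other genes of the same pathways, were read from 9 lists. Of 165 tested genes, 7 rose, 0 fell and 158 did not pass, with a median difference of 0.13. That is no more than the 4.79% called over all named genes, whose median was 0.05. The 7 include Slc7a5, which met the filter only through its double knockout values (below). Of the 165 differences, 116 were positive, and 63 genes had double knockout values all above and 11 all below wild type. Over all named genes these shares were 58.1%, 22.5% and 14.2%. In ER translocation, Ssr1, a subunit of the translocon-associated complex, rose by 0.47 ± 0.08 (limma adjusted p = 0.0373), 1 of 22 genes, and 20 of the 22 differences were positive. Of 26 further ER folding enzymes 0 passed (median 0.13). Those with the smallest p were Mogs, the first glucosidase of glycan trimming, at 0.56 ± 0.12 and the thioredoxin-related Tmx1 at 0.30 ± 0.08 (limma adjusted p = 0.0566 and 0.0793). Of 20 further degradation genes (median 0.04) and 13 further stress regulators (median 0.09), 0 passed. The smallest p-values there belonged to the ubiquitin-conjugating enzyme Ube2g2 (0.50 ± 0.16) and the selenoprotein Selenok (-0.30 ± 0.11), and to Atf6b, a relative of Atf6 (0.31 ± 0.10), and Nfya, a subunit of the factor that binds CCAAT (0.38 ± 0.13). Their limma adjusted p-values lay between 0.109 and 0.152.

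Among 19 tested targets of Atf4, 2 rose and 0 fell, with a median of 0.16. Over all named genes 4.79% passed and the median was 0.05. Mthfd2, a mitochondrial folate enzyme, read 4.64, 4.99 and 5.44 in wild type and 6.45, 6.10 and 5.93 in double knockout (1.14 ± 0.23, limma adjusted p = 0.0464). Slc7a5, a transporter of large neutral amino acids, was at least 1.71-fold higher, since all its wild type values lay under the minimum of 4 (limma adjusted p = 0.0257). Only its double knockout values, 4.86, 4.73 and 4.74, were above 4. Slc7a5 thus met the filter only through the group where it was high, and no weight is put on its call. Trib3, Ddit3 and Atf4 itself, given above, did not pass.

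The cytosolic lists held the other calls, to be read beside the 4.79% called over all named genes. TRiC and prefoldin, the chaperonin of the cytosol and its loading partner, had the highest list median, 0.27. Of their differences 13 of 14 were positive, against 58.1% over all named genes. Pfdn4 rose by 0.53 ± 0.08 and Cct3 by 0.40 ± 0.08 (limma adjusted p = 0.0273 and 0.0491). Of 26 further HSP70, HSP40 and small heat shock genes (median 0.01), the ribosome-bound pair Hspa14 and Dnajc2 rose, by 0.61 ± 0.09 and 0.54 ± 0.08 (limma adjusted p = 0.0256 and 0.0264). Among 12 HSP90 co-chaperones (median 0.19) and 13 genes of mitochondrial protein quality control (median 0.22), 0 passed. The smallest p-values belonged to Stip1, which links HSP70 to HSP90, at 0.51 ± 0.13, and to Chordc1 at 0.27 ± 0.08, and in mitochondria to the HSP40 Dnaja3 at 0.37 ± 0.10 and the import factor Timm44 at 0.40 ± 0.13. Their limma adjusted p-values were 0.0691, 0.0917, 0.0888 and 0.115.

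**Figure D4:**
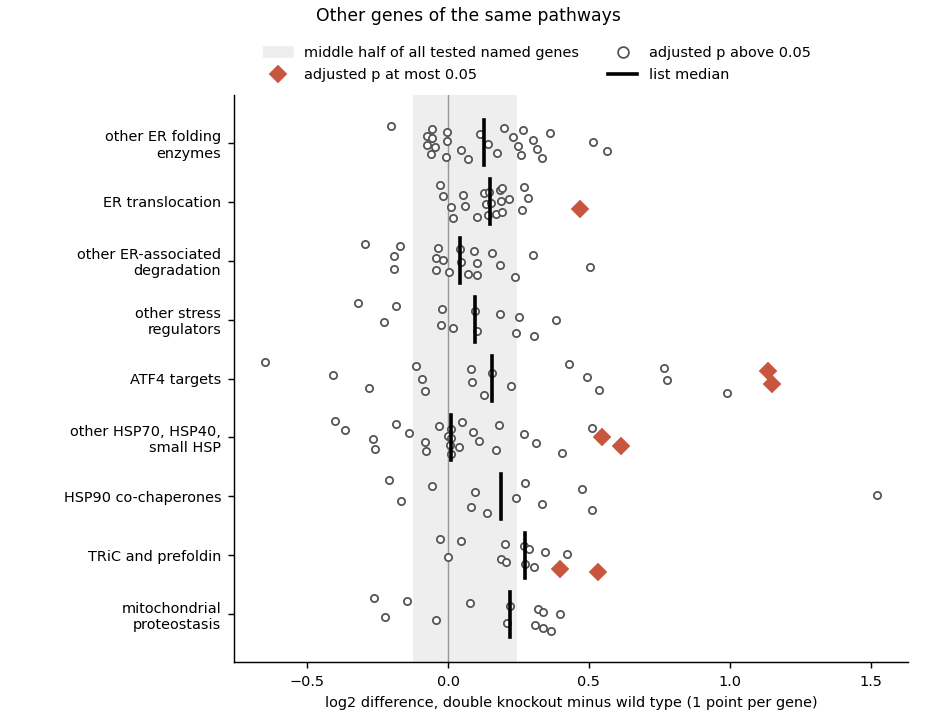
Each point is a tested gene of a pathway list, at its log2 difference, double knockout minus wild type; diamonds passed an adjusted p of 0.05, black bars are list medians and the grey band is the interquartile range of all tested named genes, -0.12 to 0.24. The 7 diamonds all lie to the right, among them Slc7a5, which met the filter only through its double knockout values. TRiC and prefoldin have the highest median, 0.27.

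Markers of the cells in a piece of jejunum were read beside these genes. Enterocyte markers such as Lct and Fabp1, all 12 of which were tested, went with small bowel tissue. No marker of its separate stretches was read here, so the jejunum label itself was not checked. The linear levels of each list, summed and put back on the log2 scale, lay for proliferating cells (10 of 12 markers tested) between 12.52 and 12.60 in wild type and between 12.90 and 13.05 in double knockout. For enterocytes (12 of 12) they lay between 16.91 and 16.95 against 16.78 and 16.85, and for plasma cells (9 of 11) between 14.25 and 14.52 against 14.56 and 14.64. For smooth muscle and fibroblasts (11 of 11) they lay between 13.37 and 13.73 against 13.75 and 13.91. The groups did not overlap for these 4 of 10 lists, and their part in the chaperone differences was not tested. Among all named genes, 22.5% had groups all above wild type and 14.2% all below. Of single markers, 8 of 10 for proliferation, 3 of 9 for plasma cells and 1 of 11 for smooth muscle and fibroblasts lay all above. For enterocytes, 8 of 12 lay all below. By limma, 7 of 10 markers for proliferation rose, 1 of 12 for enterocytes fell and 0 of 11 for smooth muscle and fibroblasts passed. Of 9 for plasma cells the light chain Igk rose, by 2.05 ± 0.26 (limma adjusted p = 0.0209). The share called over all named genes was 4.79%. Plasma cell markers include the folding enzymes Fkbp11 and Txndc5, and Tnfrsf17 and Irf4 were above 4 on no array. Goblet markers (10 of 10) overlapped, between 15.40 and 15.77 against 15.28 and 15.75, as did Paneth markers (6 of 9), between 15.28 and 15.41 against 14.87 and 15.31.

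**Figure D5:**
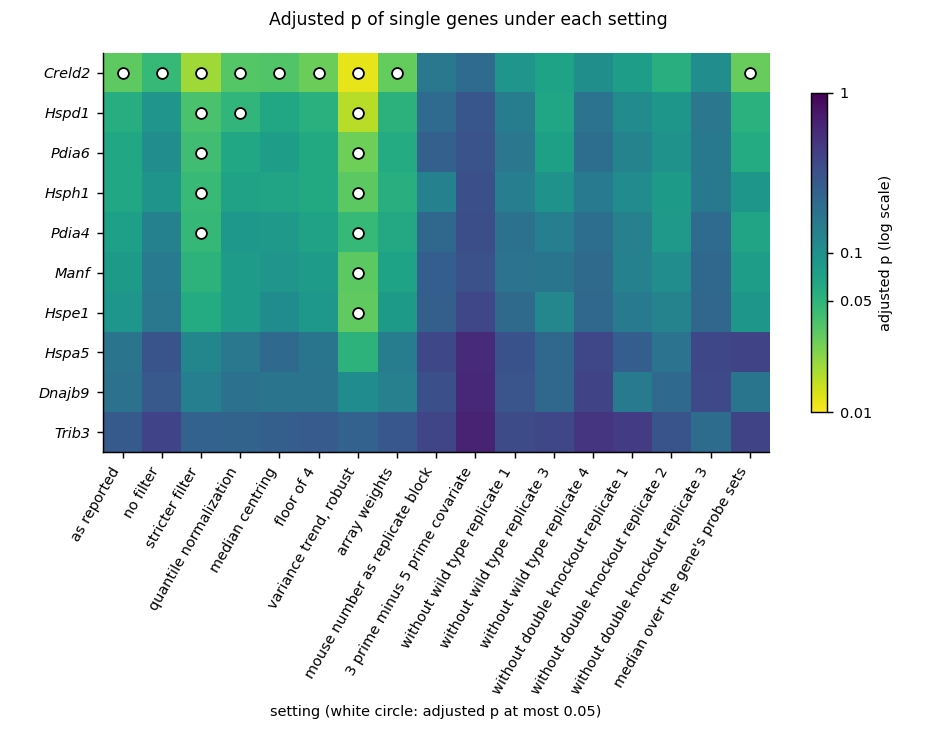
Rows are 10 genes, columns the reported analysis and 16 alternatives, and colour the limma adjusted p on a log scale, with white circles where it was at most 0.05. Creld2 has circles in the reported analysis and 8 alternatives and none in the 6 that leave out a mouse, while Hspa5, Dnajb9 and Trib3 have none.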

How the data were processed

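The deposited table holds log2 values, used as given. Per the submitters' processing notes GCRMA 2.18.0 made them, with settings not given in the sources used here. GCRMA predicts background from probe sequence and normalises arrays together, so low levels hold little information. The log2 scale was read from the values. Per the labels' protocols, 500 ng of RNA was labelled, from separate mice. Any 2 arrays of a group differed by over 0.1 on 62.5% or more of the tested probe sets, so none was a copy.

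Of 45101 probe sets, 34958 had 1 gene symbol, 932 several and 9211 none. After removal of 64 controls, those above 4 on at least 3 of 6 arrays were tested with limma 3.58.1 in R 4.3.3 (lmFit, eBayes, no covariate, two-sided), with Benjamini-Hochberg adjustment over all 18013. The fit was tested on simulated data. A change from a group whose values all lie under 4 is given as a bound, with those values raised to 4.

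Members, lists, tests and alternatives were chosen with earlier results of these data known, so no list was tested. All members could be named; of each other list, up to 4 passing genes by p, or 2 where none passed. The rule for values on every array covered members that passed or whose groups did not overlap, stress sensors and factors, Hspa5 and Hspa8; Herpud1 was added after its values were seen. Of the symbols on the other lists, 17 matched no probe set. Figures were drawn with matplotlib 3.10.9.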

Additional observations from a re-analysis of the deposited data

How the results depend on the processing

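With 3 mice per group, calls depended on the setting. The count of called probe sets was 805, and it was 472 with dim probe sets kept, 1216 with a stricter filter, 1730 with a variance trend, 17 with the 3′ to 5′ covariate, 13 with the mouse number as a replicate block and between 32 and 435 without any 1 mouse. ER genes called numbered 1 in the reported analysis, 3 with the stricter filter (Creld2, Pdia4 and Pdia6), 4 with the trend (these and Manf), 0 with the covariate, 0 with the block and 0 without any 1 mouse. Cytosolic and mitochondrial genes called numbered 0, but 1 after quantile normalization (Hspd1), 2 with the stricter filter (Hsph1 and Hspd1) and 3 with the trend (these and Hspe1). The median difference of the ER genes fell from 0.14 to 0.065 with the covariate, and over all settings it lay between 0.065 and 0.15; that of the other genes lay between 0.20 and 0.30. Only the mouse numbers 1 and 3 occur in both groups. The deviations of these mice from the group means correlated at 0.02 and 0.30. Mice of different numbers were not compared in this way, so these values cannot decide whether equal numbers mark pairs. The reported analysis takes no pairs. The block leaves few degrees of freedom, and its differences rest only on mice 1 and 3 of each group. The causes of these shifts were not tested.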

Other observations

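Markers of further cell types gave these values, as summed levels on the log2 scale. Macrophage and dendritic cell markers (7 of 10 tested) lay between 11.33 and 12.01 in wild type and between 11.55 and 12.11 in double knockout, and Cd68 was above 4 on no array. T cell markers (4 of 9) lay between 9.09 and 9.49 against 8.84 and 9.87, and Cd3e, Cd4 and Cd2 were above 4 on no array. Pancreatic acinar markers (2 of 10, Cela1 and Clps) lay between 10.56 and 11.19 against 10.19 and 11.03, and Cpa1, Cela2a, Prss2, Ctrb1 and Cpb1 were above 4 on no array. Immediate early genes (9 of 12), which can rise during dissection, lay between 12.30 and 12.65 against 11.92 and 12.79. Of these 0 were called, against 4.79% of all named genes.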
